A study of Homo sapiens with 4 samples.

Results

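The heat shock protein and DNAJ chaperone genes were taken from the PAR-CLIP table by symbol. Members were the rows named HSPA, HSPB, HSPD, HSPE, HSPH or HSP90 with any further letters or digits, DNAJA, DNAJB or DNAJC with a number, and HSF1, HSF2 and HSF4. This gave 79 of the 26490 genes in the table. They comprised 15 HSPA, 5 HSP90, 8 HSPB, 4 DNAJA, 13 DNAJB, 26 DNAJC and 3 HSF genes, the single genes HSPD1, HSPE1 and HSPH1, and 2 genes that the symbol pattern also caught, HSPBP1 and HSPBAP1, which bind chaperones and are not members of the families.

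PAR-CLIP maps the contacts of a protein on RNA: cells build 4-thiouridine into new RNA, UV light of 365 nm crosslinks it to the bound protein, and the crosslinked base reads as C in place of T. Both cell lines were HEK293, a human embryonic kidney line, and each carried a stable transgene under tetracycline control on top of its own DHX36 gene. One line made HA-Flag-DHX36-iso2 and is called FH-DHX36. The other made HA-Flag-DHX36-iso1-E335A, the helicase-dead mutant, and is called FH-DHX36-E335A or the mutant, so that the isoform and the mutation differ together and cannot be told apart. In both, 500 ng/ml tetracycline was given for 15 h, UV exposure lasted 5 min, and complexes were taken with the FLAG-M2 antibody. The study had 2 replicates of each line, but the table gives 1 value per gene and line. No spread between replicates could be computed, and no difference below was tested. Intervals are 95% intervals for counting error only, and PCR copies of a crosslinked fragment are not independent molecules. There was no control library, so that a read count shows the presence of crosslinked RNA and not its enrichment.

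DHX36 is a helicase that unwinds G-quadruplexes, structures that RNA with several neighbouring runs of guanine can form. Chaperones bind unfolded protein. HSP70 proteins (HSPA) work in an ATP cycle that J proteins (DNAJ) start and nucleotide exchange factors end, HSP90 matures kinases and hormone receptors, HSP60 with HSP10 (HSPD1 and HSPE1) forms the mitochondrial folding chamber, and the small heat shock proteins (HSPB) hold aggregating protein. HSF1 is the main transcription factor of the heat shock response, and the inducible HSP70 genes are its classical targets. PAR-CLIP was done here without any heat treatment named in the labels.

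Because guanine runs are what DHX36 is known for, the matches in the regions that held most of the reads of 5 mRNAs are shown first. The pattern was at least 4 runs of at least 2 G, separated by 1 to 7 nt, on the sense strand, with no overlap between matches. Sequences are from GRCh37, the capitals mark the G runs, and the position and strand follow each name. They are matches of letters and not binding sites, since the table gives no cluster positions. The 5 mRNAs are examples with a match. In the 3'UTR of DNAJA2, with 2151 FH-DHX36-E335A reads compared with 1024 for that of HSF2, there was none. HSP90B1 was added after its values were seen, since its reads lay mostly outside the mRNA categories.
DNAJC2 CDS, exon 13, chr7:102957361-102957371, minus strand: GGtGGaGGtGG
HSPA4 CDS, exon 15, chr5:132432870-132432891, plus strand: GGataaactGGagaaGGagcGG
HSPA4 CDS, exon 19, chr5:132440015-132440034, plus strand: GGaccagtGGatGGacaaGG
DNAJB1 3'UTR, exon 3, chr19:14626649-14626666, minus strand: GGGtGGGaGGGcccaGGG
DNAJB1 3'UTR, exon 3, chr19:14626543-14626559, minus strand: GGGcatcaGGtGGtGGG
DNAJB1 3'UTR, exon 3, chr19:14625719-14625738, minus strand: GGGGaGGGaaGGGGagttGG
DNAJC9 3'UTR, exon 5, chr10:75003092-75003108, minus strand: GGcaaGGtgcaGGcaGG
DNAJC9 3'UTR, exon 5, chr10:75002912-75002925, minus strand: GGGaGGGtGGaGGG
HSF2 3'UTR, exon 13, chr6:122753982-122753999, plus strand: GGGGGtGGGatGGGatGG
HSP90B1 5'UTR, exon 1, chr12:104324191-104324209, plus strand: GGGcGGaccgcgcGGctGG
HSP90B1 5'UTR, exon 1, chr12:104324231-104324247, plus strand: GGGGtGGGGGGtGGaGG
All matches in each named region are shown, and the first DNAJB1 match is the only one among them with 4 runs of 3 G.

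With FH-DHX36-E335A, 48 of the 79 chaperone and HSF mRNAs carried at least 1 cluster of crosslinked reads, a share of 60.8% (95% Wilson interval from 49.7% to 70.8%). Over all genes of the table this share was 34.5%, and over the 18854 genes with a protein-coding transcript it was 48.1%. In the FH-DHX36 PAR-CLIP, 36 members carried a cluster, or 45.6% (35.0% to 56.5%), compared with 22.4% of all genes and 31.3% of genes with a protein-coding transcript. Each of the 36 was also bound by FH-DHX36-E335A, 12 were bound by FH-DHX36-E335A alone, none by FH-DHX36 alone, and 31 by neither. Over all genes 5669 were bound by both, 3462 by FH-DHX36-E335A alone and 261 by FH-DHX36 alone, so that 62.1% of the genes bound by the mutant were shared, compared with 75.0% of the members. The 12 genes found with the mutant alone had a median of 107 reads there and at most 655, compared with a median of 874 for the 36 found with both. Over all genes these medians were 108 and 627. The FH-DHX36-E335A table holds 4.05 times as many crosslinked reads in all as the FH-DHX36 table, 8752127 against 2160413. The part of this depth in the 12 genes was not tested.

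The members held 74742 crosslinked FH-DHX36-E335A reads in 384 clusters, 0.854% of all reads, and 15725 FH-DHX36 reads in 109 clusters, 0.728% of all. A bound member had a median of 585.5 FH-DHX36-E335A reads, compared with 326 for all bound genes, and of 264.5 FH-DHX36 reads, compared with 121. The reads were unevenly spread, with the 5 highest members, DNAJC2, HSPA4, HSP90B1, HSPA14 and DNAJB1, taking 50.2% of the FH-DHX36-E335A reads of the group. Bound members also came from more abundant mRNAs. Their median RNA abundance, recovered from the table as read share divided by NXPM, was 12.7, compared with 5.89 for all bound genes. Across the 48 members, Spearman's rho of FH-DHX36-E335A reads with abundance was 0.521, and with transcript length it was -0.0233. Over all genes bound by FH-DHX36-E335A with these values, rho was 0.316 with abundance and 0.0370 with transcript length. These are descriptions across genes of 1 table, and abundance could not be recovered for the 31 members without a cluster.

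**Figure D1:**
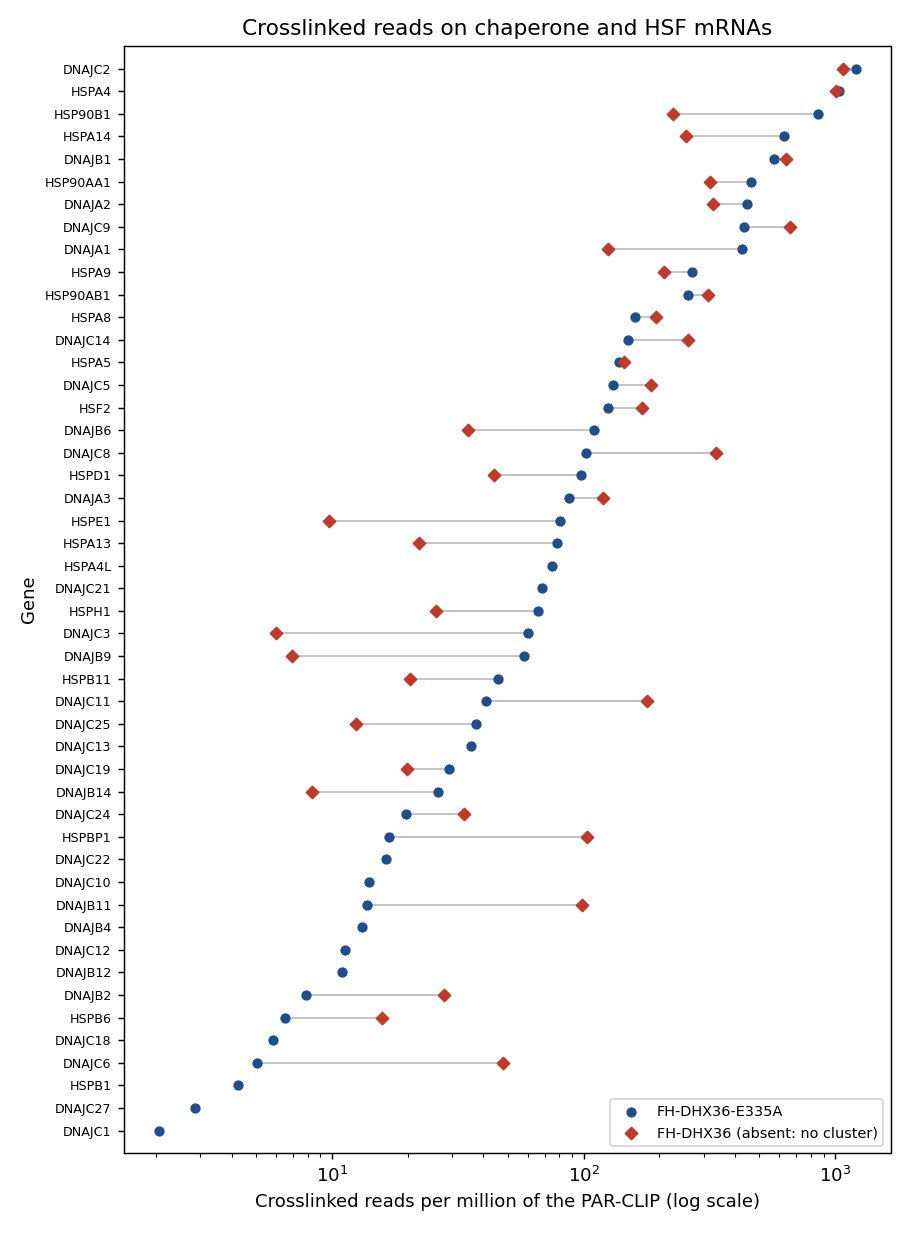
Crosslinked reads per 1000000 crosslinked reads of the PAR-CLIP (log axis) for the 48 members with an FH-DHX36-E335A cluster, 1 line per gene from the highest at the top. Circles stand for FH-DHX36-E335A and diamonds for FH-DHX36, which is absent for the 12 genes without an FH-DHX36 cluster. DNAJC2 and HSPA4 lead in both PAR-CLIPs, and the 12 genes without a diamond lie at 74.8 or below.

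Of the 15 HSPA genes, which encode the HSP70 and HSP110 proteins, 7 had an FH-DHX36-E335A cluster and 6 also an FH-DHX36 cluster. These shares, 46.7% and 40.0%, compare with 48.1% and 31.3% of genes with a protein-coding transcript. HSPA4, an HSP110-type exchange factor for HSP70, had 9079 reads in 30 clusters with FH-DHX36-E335A and 2181 reads in 7 clusters with FH-DHX36. As a share of reads it was the same in both within counting error, at 1037 and 1010 reads per 1000000, with a log2 ratio of 0.04 (-0.03 to 0.11). With the mutant, the CDS held 5762 reads and the 3'UTR 2971, each in 14 clusters. HSPA4 thus carried the most clusters of any member.

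HSPA14, a ribosome-associated HSP70 that pairs with DNAJC2, had 5473 FH-DHX36-E335A reads in 20 clusters, but 4951 of them, or 90.5%, lay in introns. All 552 FH-DHX36 reads on HSPA14 were intronic. In the annotation, the protein-coding gene MSANTD7 overlaps HSPA14 on the same strand, from 14880301 to 14888998 on chromosome 10, so that the reads of both genes may not be separable there. HSPA9, the mitochondrial HSP70, had 2361 FH-DHX36-E335A and 451 FH-DHX36 reads, and the CDS held 1233 and 291 of them. A further 596 and 160 had an annotation other than 5'UTR, CDS, 3'UTR or intron. Copies of the snoRNA gene SNORD63 lie inside HSPA9 on the same strand, and their part in its reads was not tested. HSPA8, the constitutive cytosolic HSP70, had 1405 and 420 reads, with 822 and 420 in the CDS. HSPA8 has 17 annotated pseudogenes, and the snoRNA genes SNORD14C, SNORD14D and SNORD14E lie inside it on the same strand. How reads were divided among these was not tested. The recovered abundance of HSPA8, 171, was the highest of all bound members, and its NXPM was correspondingly low, 0.939 with the mutant and 1.14 with FH-DHX36.

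HSPA5, the HSP70 of the endoplasmic reticulum and chosen after its values were seen, had 1207 FH-DHX36-E335A reads, 1115 of them in the 3'UTR. With FH-DHX36 it had 313 reads, spread over the 5'UTR with 66, the CDS with 94 and the 3'UTR with 153. The inducible HSPA1A and HSPA1B were listed at 0 clusters in both PAR-CLIPs. Their coding sequences of 1926 nt differ at 4 positions, an identity of 99.8%, so that short reads from most of the coding sequence map to both genes and could not be placed if unique mapping was required. Their 0 can thus not be read as a lack of contact. The other HSPA genes without a cluster were HSPA1L, HSPA2, HSPA6, HSPA7, HSPA12A and HSPA12B.

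The 3 protein-coding HSP90 genes were all bound in both PAR-CLIPs, and the 2 pseudogenes HSP90AB4P and HSP90B2P were not. HSP90B1, the HSP90 of the endoplasmic reticulum, had 7441 FH-DHX36-E335A reads, of which 6869, or 92.3%, fell in an annotation other than 5'UTR, CDS, 3'UTR or intron. With FH-DHX36 it had 490 reads, of which 235 had such an annotation. By all reads its share was 3.75-fold higher with FH-DHX36-E335A (log2 ratio 1.91, 1.77 to 2.04). By exonic reads alone the order turned, with 572 FH-DHX36-E335A and 255 FH-DHX36 reads and a log2 ratio of -0.84. MIR3652, a microRNA gene from 104324203 to 104324333 on chromosome 12, lies on the same strand and overlaps the first exon, with part of the first printed G-run match and all of the second. No reads were listed in the 5'UTR of HSP90B1, and whether the reads of other annotation belong to MIR3652 was not tested.

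HSP90AA1, the inducible cytosolic HSP90, had 4066 FH-DHX36-E335A and 686 FH-DHX36 reads. Of these, 2830 and 251 had another annotation, and by exonic reads its log2 ratio moved from 0.55 to -0.50. HSP90AB1, its constitutive paralog, had 2280 and 672 reads, nearly all of them exonic. A single 5'UTR cluster held 821 of the FH-DHX36-E335A reads of HSP90AB1, or 36.0%, and a single 5'UTR cluster held 310 of the FH-DHX36 reads, or 46.1%, on a 5'UTR of 95 nt. The coding sequences of the 2 paralogs were 75.1% identical, and 5 pseudogenes of HSP90AA1 and 6 of HSP90AB1 are annotated, which could share reads with them.

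HSPD1, HSPE1 and HSPH1 each had clusters in both PAR-CLIPs, and each had a share of reads over 2-fold higher with FH-DHX36-E335A. HSPD1 and HSPE1 encode HSP60 and HSP10. HSPD1 had 853 FH-DHX36-E335A reads in 10 clusters, 519 of them in the CDS, and 95 FH-DHX36 reads in 1 CDS cluster. HSPE1 had 702 reads in 5 clusters and 21 reads in 1 cluster, a ratio of shares of 8.25 (log2 3.04, 2.42 to 3.67). HSPH1, an exchange factor for HSP70, had 575 and 56 reads, and its FH-DHX36 cluster had no exonic annotation. The FH-DHX36 counts rest on 1 cluster for each gene. HSPE1 has 26 and HSPD1 18 annotated pseudogenes, and how reads were divided among the copies was not tested. The readthrough gene HSPE1-MOB4 also overlaps HSPE1 on the same strand.

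Of the 8 HSPB genes, 3 had an FH-DHX36-E335A cluster, or 37.5% (13.7% to 69.4%), and 2 an FH-DHX36 cluster, or 25.0%. These shares were near those of all genes, 34.5% and 22.4%, and below those of genes with a protein-coding transcript, 48.1% and 31.3%. The number of genes is too small to tell these apart. HSPB11, which is listed in newer annotation as IFT25, a component of intraflagellar transport, had 398 and 44 reads. HSPB1, or HSP27, had 37 FH-DHX36-E335A reads in 1 3'UTR cluster and no FH-DHX36 cluster. HSPB6, or HSP20, had 57 and 34 reads, all in introns. HSPB6 nevertheless had the second highest FH-DHX36 NXPM of the members, 74.9, and 31.0 with the mutant, because the division is by a recovered abundance of 0.209. HSPB2, HSPB3, HSPB7, HSPB8 and HSPB9 had no cluster.

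Of the DNAJA genes, which encode the J proteins closest to the bacterial type, DNAJA1, DNAJA2 and DNAJA3 were bound in both PAR-CLIPs and DNAJA4 in neither. DNAJA2 had 3902 FH-DHX36-E335A reads, with 1751 in the coding sequence and 2151 in the 3'UTR, and 706 FH-DHX36 reads, with 386 and 320. Its 3'UTR of 1667 nt held no match to the G-run pattern. DNAJA1 had 3720 and 270 reads, so that its share was 3.40-fold higher with FH-DHX36-E335A (log2 1.77, 1.59 to 1.94). Most FH-DHX36-E335A reads on DNAJA1, 2140, lay in the CDS, while 179 of its 270 FH-DHX36 reads lay in 1 5'UTR cluster. DNAJA3, the mitochondrial member, had 769 and 259 reads. Its log2 ratio was -0.45 by all reads and 0.36 by exonic reads. DNAJA1 has 6 annotated pseudogenes, whose share in its reads was not tested.

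Of the exonic reads on the DNAJB mRNAs, 84.6% with FH-DHX36-E335A and 85.6% in the FH-DHX36 PAR-CLIP lay in the 3'UTR. DNAJB1 held 3694 of the 4994 and 1231 of the 1351 3'UTR reads. Without it, an alternative chosen after seeing the data, the 3'UTR shares were 71.2% of 1826 and 34.6% of 347 exonic reads. The CDS held 61.1% of those FH-DHX36 reads, but all 212 of its reads came from 1 cluster of DNAJB11. The exonic FH-DHX36 reads of DNAJB6 and DNAJB2, 60 each, lay wholly in the 3'UTR, and the 15 of DNAJB9 in the 5'UTR. DNAJB1, the main cytosolic HSP40 and partner of HSP70, had 4978 FH-DHX36-E335A reads, with 5 clusters in the 3'UTR and 386 reads in 4 CDS clusters. With FH-DHX36 it had 1382 reads, also with 5 clusters in the 3'UTR and none in the CDS. The 3'UTR held 3155 FH-DHX36-E335A reads per kb, more than that of any other member, compared with 377 per kb in the CDS. The log2 ratio of shares of DNAJB1 was -0.17 (-0.26 to -0.08).

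Of the other DNAJB genes, DNAJB6, which blocks polyglutamine aggregation, had 959 FH-DHX36-E335A and 75 FH-DHX36 reads, and 8 pseudogenes of it are annotated, whose part was not tested. DNAJB9, a J protein of the endoplasmic reticulum, had 507 reads in 10 clusters and 15 reads in 1 cluster, a ratio of shares of 8.34. DNAJB14, a J protein of the endoplasmic reticulum membrane, had 231 and 18 reads. DNAJB11, also of the endoplasmic reticulum and chosen after its values were seen, went the other way, with 121 and 212 reads and a share 7.10-fold higher with FH-DHX36. Another protein-coding gene overlaps DNAJB11 on the same strand, and its part in these reads was not tested. Of the 13 DNAJB genes 8 were bound with the mutant and 6 with FH-DHX36, and DNAJB3, DNAJB5, DNAJB7, DNAJB8 and DNAJB13 by neither. The shares bound, 61.5% and 46.2%, compare with 48.1% and 31.3% of genes with a protein-coding transcript.

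The DNAJC genes encode J proteins that share only the J domain and act in many places. Of the 26, 19 were bound with the mutant and 11 with FH-DHX36. These shares were 73.1% and 42.3%, compared with 48.1% and 31.3% of genes with a protein-coding transcript. DNAJC2, the ribosome-associated partner of HSPA14, had the most reads of any member in both PAR-CLIPs, 10552 and 2316, at 1206 and 1072 per 1000000. Of all genes it ranked 80 with the mutant and 141 with FH-DHX36. The reads lay almost wholly in the CDS, with 10243 in 5 clusters and 2250 in 1 cluster. This made 5489 FH-DHX36-E335A reads per kb of the CDS against 32.1 per kb of the 3'UTR. Its NXPM was the highest of all members, 117 with the mutant and 104 with FH-DHX36, the ranks 394 and 381 of all genes.

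DNAJC9, a histone chaperone, showed the opposite layout, with 3120 of 3802 FH-DHX36-E335A reads and 1386 of 1428 FH-DHX36 reads in the 3'UTR. Its share of reads was 1.52-fold higher with FH-DHX36. DNAJC14, a J protein of the endoplasmic reticulum membrane, had 1311 and 563 reads, with 1250 and 563 in the CDS, and an NXPM of 28.4 and 49.5. It too is overlapped by another protein-coding gene on the same strand, whose part was not tested. DNAJC5, the cysteine string protein of secretory vesicles, had 1143 and 400 reads, with 1037 and 400 in the 3'UTR. The 3'UTR of DNAJC5, 4443 nt long, held 22 matches to the G-run pattern, more than that of any other bound member. The reads on DNAJC25, 327 and 27, were intronic or of other annotation, and the readthrough gene DNAJC25-GNG10 overlaps it on the same strand.

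A few DNAJC genes outside the naming rule, chosen after their values were seen, marked the ends of the comparison between the cell lines. DNAJC3, an inhibitor of eIF2alpha kinases that also acts in the endoplasmic reticulum, had 527 FH-DHX36-E335A reads in 10 clusters, 492 of them in the 3'UTR, and 13 FH-DHX36 reads, a ratio of shares of 10.0. DNAJC6, or auxilin, a factor in the uncoating of clathrin vesicles, had 44 and 103 reads and a share 9.48-fold higher with FH-DHX36. DNAJC11, a mitochondrial membrane protein, had 357 and 386 reads, and DNAJC8, a splicing-associated protein, 895 and 724, nearly as many with FH-DHX36 as in the deeper PAR-CLIP. Of the reads on DNAJC8, 738 and 697 were of other annotation, and another protein-coding gene overlaps it on the same strand. DNAJC4, DNAJC7, DNAJC15, DNAJC16, DNAJC17, DNAJC28 and DNAJC30 had no cluster.

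Of the 3 HSF genes, HSF2 alone was bound, or 33.3%, compared with 34.5% of all genes with the mutant and 22.4% with FH-DHX36. HSF2 had 1098 FH-DHX36-E335A reads, 1024 of them in a single 3'UTR cluster, and 367 FH-DHX36 reads, all in a single 3'UTR cluster. Its 3'UTR of 899 nt held 1 G-run match, shown above. The log2 ratio of shares was -0.44 (-0.61 to -0.27), and NXPM was 8.32 and 11.3. HSF1 and HSF4 were listed at 0 in both PAR-CLIPs, although the 3'UTR of HSF1, of 390 nt, held 5 matches. HSPBP1, an exchange factor for HSP70 caught by the symbol pattern, had 147 and 223 reads, a share 6.15-fold higher with FH-DHX36, and HSPBAP1 had no cluster.

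By region, the 3'UTR held a smaller share of exonic reads in the chaperone mRNAs than over all genes. Of their 53919 exonic FH-DHX36-E335A reads, 54.5% lay in the CDS (54.0% to 54.9%), 40.6% in the 3'UTR (40.2% to 41.1%) and 4.91% in the 5'UTR. Over all genes the shares were 22.9%, 71.9% and 5.21%. With FH-DHX36, 59.5% of 13169 exonic reads lay in the CDS, 35.0% in the 3'UTR and 5.49% in the 5'UTR, compared with 38.0%, 51.4% and 10.7% over all genes. The lead of the CDS with the mutant rests on DNAJC2. Without it, the 3'UTR share was 50.4% and the CDS share 44.02% with the mutant, and 42.5% and 51.4% with FH-DHX36. Both 3'UTR shares were still below those of all genes. Counted by clusters, the 3'UTR share of the members was 45.0% and 43.0%, compared with 59.2% and 51.5% over all genes.

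**Figure D2:**
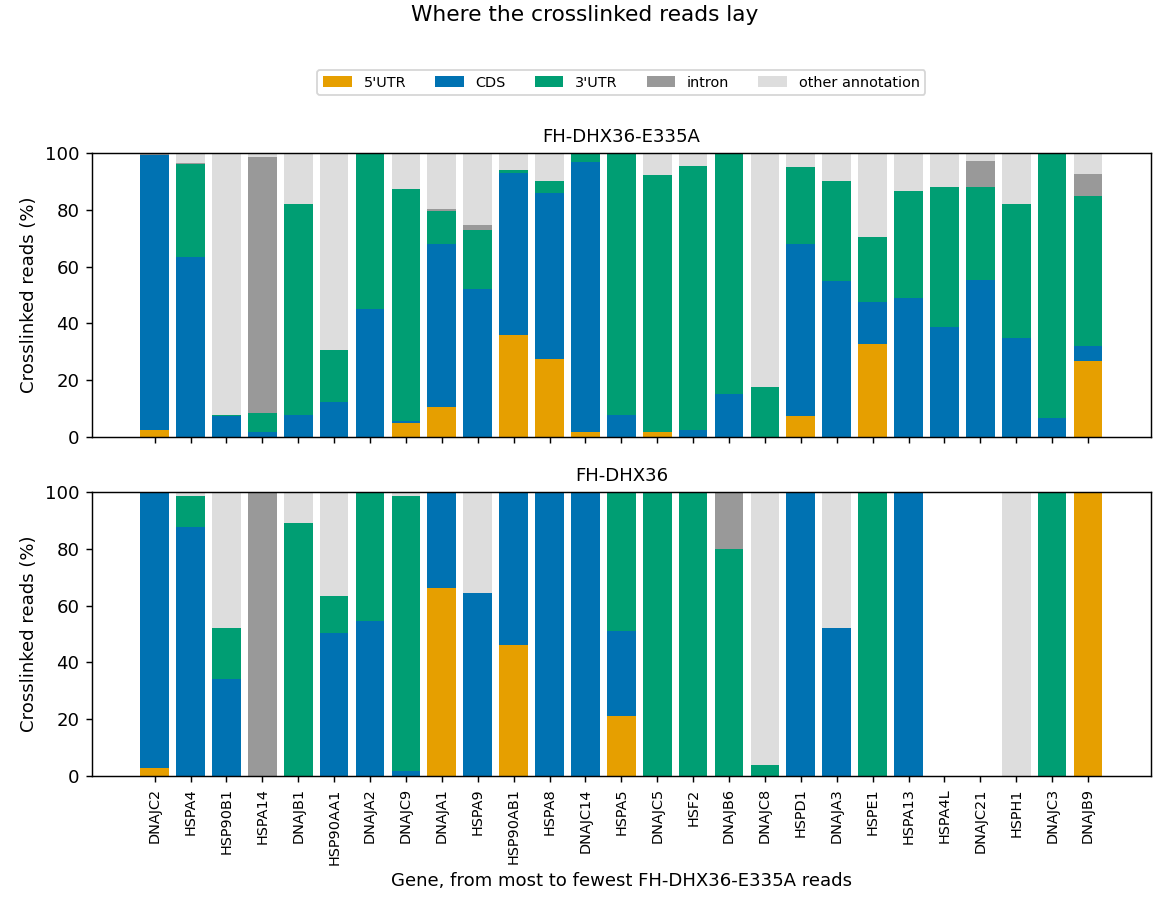
Percent of the crosslinked reads of each gene in the 5'UTR, CDS, 3'UTR, introns and other annotation, as stacked bars from 0 to 100, for the members with at least 500 FH-DHX36-E335A reads, ordered by those reads. The upper panel is FH-DHX36-E335A and the lower panel FH-DHX36, where HSPA4L and DNAJC21 have no bar because they had no cluster. DNAJC2, DNAJC14 and HSPA8 are mainly CDS in both, DNAJB1, DNAJC9, DNAJC5 and HSF2 mainly 3'UTR, HSPA14 intron, and HSP90B1 and DNAJC8 mainly or largely other annotation.

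The comparison was repeated per length, with the canonical transcript of each gene. The reads were denser in the 3'UTR than in the CDS for 24 of 45 members with exonic FH-DHX36-E335A reads, or 53.3%, and 66.8% of all such genes were denser there. With FH-DHX36 it was 11 of 30 members, or 36.7%, compared with 50.5% of all such genes. DNAJA1, DNAJA2 and DNAJA3 were denser in the CDS in both PAR-CLIPs, and HSPD1, HSPE1 and HSPH1 were denser in the 3'UTR with FH-DHX36-E335A. For HSPA14 the 375 3'UTR reads fell in 5 clusters although the canonical 3'UTR is 135 nt long, and whether they belong to another transcript was not tested.

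**Figure D3:**
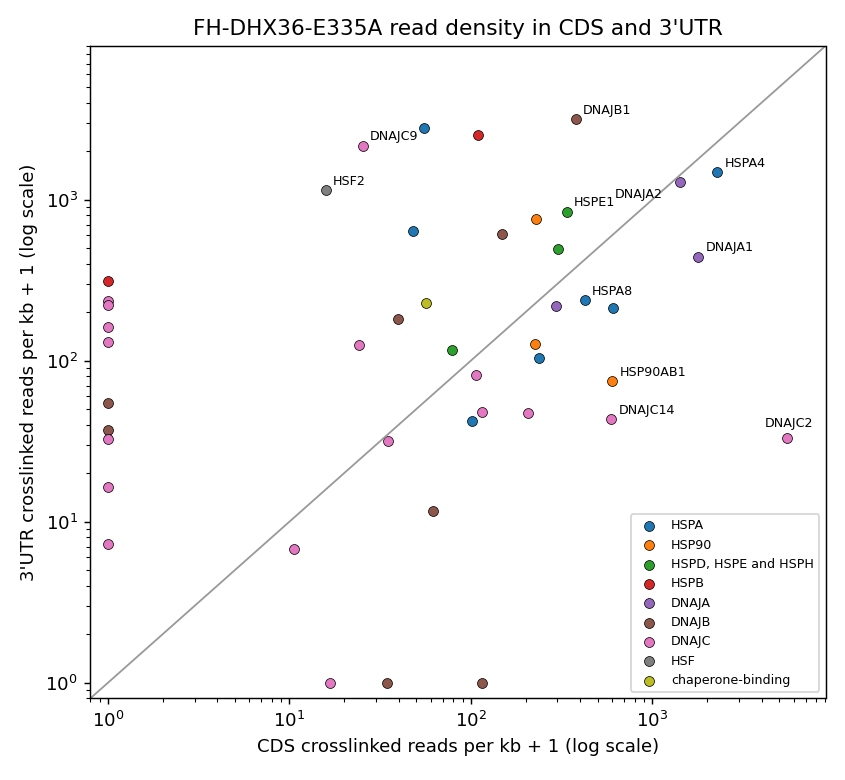
FH-DHX36-E335A crosslinked reads per kb of CDS (horizontal) against reads per kb of 3'UTR (vertical), each plus 1 and on a log axis, for the 45 members with exonic reads, colored by family. The line marks equal density. DNAJC2 lies far to the right of the line, with 5489 reads per kb of CDS, and DNAJB1, DNAJC9 and HSF2 lie far above it.

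Short 5'UTRs carried dense signal on 4 of the abundant chaperone mRNAs, picked after their values were seen. With FH-DHX36-E335A, the 5'UTR of HSP90AB1 had 8642 reads per kb, that of HSPA8 4949, that of HSPE1 3966 and that of DNAJA1 3165. With FH-DHX36, HSP90AB1 had 3263 and DNAJA1 1479 reads per kb of 5'UTR, while HSPA8 and HSPE1 had no reads there. These 5'UTRs are 58 to 121 nt long, so that each value rests on 1 or 2 clusters. Of these 4 mRNAs, DNAJA1 alone had a match to the G-run pattern in the 5'UTR, compared with 53.9% of all 5'UTRs. Other abundant members with short 5'UTRs had no reads there in either PAR-CLIP, namely HSP90AA1 (59 nt), HSP90B1 (106 nt) and HSPA9 (83 nt). Read density in the 5'UTR was not compared with that of all genes.

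The question of the cell line comparison is whether the helicase-dead protein shifted contacts between these mRNAs. For the 36 members bound in both PAR-CLIPs, the share of all reads was compared. The median log2 ratio of FH-DHX36-E335A over FH-DHX36 was 0.10, and over all 5669 genes bound in both it was 0.12. At least a 2-fold higher share with FH-DHX36-E335A was found for 13 of the 36 members, and this call was made for 28.6% of all genes. At least a 2-fold higher share with FH-DHX36 was found for 7 members, and for 24.8% of all genes. The other 16 lay within 2-fold. Ratios ran from -3.25 for DNAJC6 to 3.32 for DNAJC3 on the log2 scale. With at least 100 reads required in each PAR-CLIP, which left 21 members, the median was -0.26, and by exonic reads, for 30 members, it was -0.022.

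The counting interval of the ratio excluded 0 for 34 of the 36 members, all but HSPA4 and HSPA5. This interval holds no replicate spread, and the smaller counts rest on 1 cluster. The same count was not made over all genes bound in both, so that 34 of 36 cannot be called particular to the members. Across the 36 members, rho of reads between the PAR-CLIPs was 0.780 and Pearson's r of log10 reads was 0.698. For NXPM rho was 0.719. Both NXPM values of a gene share 1 abundance, so that part of this correlation comes with the divisor. Over all genes bound in both, rho was 0.630 for reads and 0.789 for NXPM, and r of log10 reads was 0.638. The median NXPM of bound members was 7.63 with FH-DHX36-E335A, compared with 5.66 for all bound genes, and 5.72 with FH-DHX36, compared with 7.84.

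**Figure D4:**
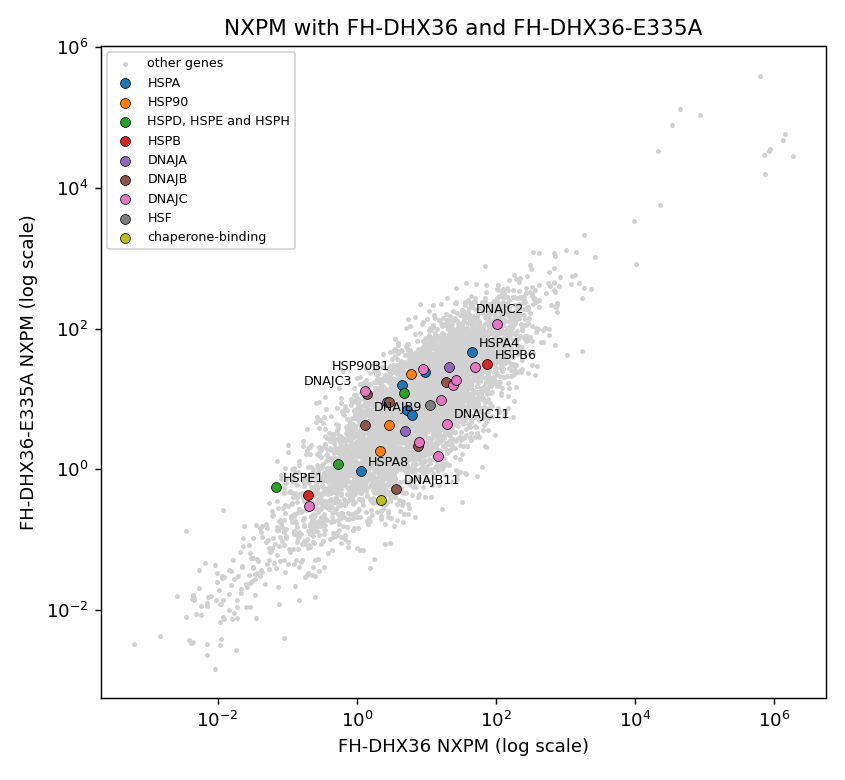
NXPM with FH-DHX36 (horizontal) against NXPM with FH-DHX36-E335A (vertical), both on log axes, for the 36 members bound in both PAR-CLIPs, colored by family, over the other genes bound in both in gray, without those at a recovered abundance of 0. NXPM is crosslinked reads per 1000000 divided by RNA abundance. DNAJC2 is the highest member on both axes, and HSPE1 lies lowest with FH-DHX36 at 0.0684.

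The G-run pattern was compared with all mRNAs by the share of regions with a match and by matches per kb. Of the 75 members with a protein-coding transcript, 42 had a match in the 3'UTR, or 56.0%, compared with 65.1% of all 3'UTRs. In the CDS 67 of 75 had a match, or 89.3%, compared with 84.8% of all, and in the 5'UTR 37 of 75, or 49.3%, compared with 53.9%. Of the 48 members bound with FH-DHX36-E335A 25 had a 3'UTR match, or 52.1%, and of the 27 unbound ones 17, or 63.0%. Over all genes bound by FH-DHX36-E335A this share was 71.3%, above the 65.1% of all 3'UTRs, while that of the bound members was below it. Per kb of 3'UTR there were 1.38 matches in bound and 2.60 in unbound members. Over all genes there were 1.84, over all genes bound by FH-DHX36-E335A 1.73, and over the 75 members 1.67. In the CDS there were 2.71 per kb in the members and 2.91 over all genes, and in the 5'UTR 7.08 and 6.88, so that both orders turned against those of the shares. With runs of at least 3 G, 12 of the 75 had a 3'UTR match, or 16.0%, compared with 14.3% of all. Across the 48 bound members, rho of the number of 3'UTR matches with FH-DHX36-E335A 3'UTR reads was 0.245, and rho of the length of the 3'UTR with the same reads was 0.201.

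The letters ATTTA, the core of AU-rich elements, were counted in the same 3'UTRs. Of the 75 members, 56 had at least 1, or 74.7%, compared with 68.5% of all genes. Per kb there were 3.04 in the 48 bound members and 1.54 in the 27 unbound ones, compared with 2.40 in all genes bound by FH-DHX36-E335A. The bound and unbound members also differed in the median length of the 3'UTR, 1292 and 390 nt. The median share of G and C letters in their 3'UTRs was 36.345% and 44.37%, compared with 40.66% in all genes bound by FH-DHX36-E335A. The part of length and base composition in the differences of ATTTA and of G-run matches per kb was not tested. DNAJA2, with 2151 reads on a 3'UTR without a G-run match, had 6 copies of ATTTA, and DNAJB1, with 3694 reads and 3 G-run matches, had none. The members with 3'UTR reads between these had both. DNAJC9, with 3120 reads, had 5 copies of ATTTA and 2 G-run matches, and HSPA4, with 2971 reads, had 3 and 4.

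Other genes of protein folding were taken from lists made for this work, some of which share genes with the families. All 8 subunits of the TRiC chaperonin, which folds actin and tubulin, were bound in both PAR-CLIPs, with CCT3 at 12752 FH-DHX36-E335A and 2836 FH-DHX36 reads. Only 8.09% of the FH-DHX36-E335A reads on CCT3 were exonic, compared with 97.8% of its FH-DHX36 reads, so that its exonic FH-DHX36-E335A reads, 1032, were fewer than the 2921 CDS reads of CCT5. Of 15 HSP90 cochaperones, 15 were bound with the mutant and 13 with FH-DHX36, with PTGES3, or p23, at 10803 and 988 reads and FKBP4, an HSP90-binding immunophilin, at 7117 and 1681. Of the FH-DHX36-E335A reads on PTGES3, 9792 lay in the CDS. Of 13 nucleotide exchange factors of HSP70 12 and 10 were bound, with GRPEL2, a mitochondrial exchange factor, at 9051 and 1816 reads, most of them in the 3'UTR for FH-DHX36-E335A.

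Of 18 chaperones and cochaperones of the endoplasmic reticulum, 10 of them members, 16 and 14 were bound, with CANX, or calnexin, at 16056 and 2248 reads. Of 12 mitochondrial chaperones, 8 of them members, 10 and 9 were bound. Of 12 stress-inducible chaperones, all of them members, 9 and 7 were bound. Prefoldin, which hands nascent chains to TRiC, had 4 and 2 of 6 subunits bound, and of 7 factors of the unfolded protein response 6 and 3 were bound. For these lists, as for the members, the shares of all genes given above, 34.5% and 22.4%, include genes that HEK293 cells may not express.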

How the data were processed

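PAR-CLIP was done by the authors in 2 HEK293 lines with 2 replicates each. Reads were demultiplexed with bcl2fastq 2.17.1 per the submitters' processing notes, mapped to hg19, called into clusters with PARalyzer in PARpipe and assigned with GENCODE v19. The sources used here do not give the versions of PARalyzer and PARpipe. Deposited by the authors were counts of clusters and of crosslinked reads per gene and region, without normalization, and also NXPM, a normalized score of reads per 1000000 over RNA abundance. Replicates are not separated in the table, so the leave-one-out fits could not be run.

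Members and gene lists were chosen with earlier results of these data known. A gene is called bound if it has at least 1 cluster of any annotation. Other annotation is the remainder after 5'UTR, CDS, 3'UTR and intron. Read shares use all crosslinked reads of the PAR-CLIP. Abundance is reads per 1000000 over NXPM, minus 0.001. Simulated NXPM values made with this same formula gave back their abundances (100% recovered), which checks the code and not the formula. For the 5365 genes compared, the abundances from both PAR-CLIPs differed by at most 3.25e-05%. Lengths, pseudogenes, overlaps and G-run matches come from canonical transcripts of GENCODE 44 on GRCh37, with a transcript for 75 members, 1 of them (HSPB11) through a RefSeq synonym. HSP90AB4P, HSP90B2P, HSPA7 and DNAJB3 had none. Lines with an identifier listed more than once, 203 in all, were kept.

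Intervals are 95% Wilson intervals for shares and normal intervals on log counts for ratios. Genes were named by a rule: per family the 4 members with the most FH-DHX36-E335A reads and the 1 with the most FH-DHX36 reads, the 5 highest FH-DHX36-E335A NXPM values among members bound in both at an abundance of at least 1, all HSF genes and the paralogs HSPA1A, HSPA1B, HSP90AA1 and HSP90AB1. HSPA5, HSPBP1, DNAJB11, DNAJC3, DNAJC6, DNAJC8 and DNAJC11 were chosen after their values were seen, as were the 5'UTR comparison, the count of ATTTA, the DNAJB shares without DNAJB1 and the CDS shares without DNAJC2. Python 3.11.15, pandas 2.3.3, numpy 2.4.6, scipy 1.17.1, biopython 1.88 and matplotlib 3.10.9 were used.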

Additional observations from a re-analysis of the deposited data

How the results depend on the processing

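No paired analysis was possible because the table gives 1 value per gene and cell line and does not separate the replicates. For the same reason no replicate could be left out. By exonic reads alone the members' share of reads was 0.831% with the mutant and 0.815% with FH-DHX36, and without DNAJC2 it was 0.733% and 0.621%. The 3'UTR share of exonic reads without DNAJC2 was 50.4% and 42.5%, and by clusters 45.0% and 43.0%. With at least 2 clusters required, 23 members were bound with FH-DHX36 and 43 with the mutant. With runs of at least 3 G, 12 members had a 3'UTR match. By exonic reads the log2 ratio turned from 1.91 to -0.84 for HSP90B1, from 0.55 to -0.50 for HSP90AA1 and from -0.45 to 0.36 for DNAJA3, of which HSP90B1 alone had been past 2-fold. Chosen after seeing the data, the 3'UTR share of DNAJB without DNAJB1 was 71.2% and 34.6%, and the CDS share of all members without DNAJC2 44.02% and 51.4%. Of 45 alternative values for single genes, 7 moved beyond counting error or turned. The median log2 ratio turned to -0.26 with at least 100 reads in each PAR-CLIP and to -0.022 by exonic reads. Leaving out the pseudogenes and HSPBP1 and HSPBAP1, or taking DHX36 and the mitochondrially encoded genes out of the totals, moved no bound count or median NXPM by over 1.5 times, no share beyond counting error, and turned no direction. The lack of control libraries and of separate replicates limits each comparison, and genes with under 100 FH-DHX36 reads rest mostly on 1 cluster.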
